A study of Homo sapiens with 4 samples.

Results

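The data are the reads of 1 mature miRNA, hsa-miR-122-5p, in extracellular vesicles (EVs) of MDA-MB-231 cells, a triple-negative line of human breast cancer. It was taken by its name from the deposited count table, which lists 1619 miRNAs and predicted miRNAs in all, 539 of them for both replicates. The group 231 EV came from wild-type cells kept for 12 h in EV-free medium, and the group 231 -G EV from the same cells kept for 12 h in glucose-free medium. Before that all cells had grown in medium with fetal bovine serum, and all EVs were pelleted at 110000 × g for 70 min. The labels describe the complete medium as free of EVs and do not say this of the glucose-free one. Each group had 2 libraries. Both libraries numbered 1 came from RNA that was pretreated to remove modifications, and for both numbered 2 an NEBNext kit was used, so each replicate number names a pair of libraries that shared a preparation.

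MiR-122-5p is the dominant miRNA of hepatocytes, where it maintains cholesterol and fatty acid metabolism. It silences enzymes of glucose use, among them the pyruvate kinase PKM, and breast cancer EVs that carry it have been described as lowering the glucose uptake of cells in a niche where tumours spread. It is also abundant in blood serum, and its mature sequence is conserved among mammals, cattle included. Reads with this name can therefore come from the cells or from serum in the medium. For this reason it was set beside a serum list of 13 miRNAs of red cells, white cells, platelets, endothelium and serum, and beside 3 reference miRNAs that cultured cancer cells make in quantity.

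The mature sequences are shown so that the identity of the counted molecule, its opposite arm and the transcript of the other strand can be seen. They are printed 5′ to 3′ as RefSeq gives them on GRCh38.p14, with the seed, bases 2 to 8, in capitals.
hsa-miR-122-5p: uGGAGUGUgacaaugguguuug
hsa-miR-122-3p: aACGCCAUuaucacacuaaaua
hsa-miR-3591-3p: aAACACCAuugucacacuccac
hsa-miR-126-3p: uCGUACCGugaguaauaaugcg
hsa-miR-142-3p: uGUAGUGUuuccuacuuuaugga
hsa-miR-1246: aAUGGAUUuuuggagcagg
hsa-miR-16-5p: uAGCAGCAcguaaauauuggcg
hsa-let-7a-5p: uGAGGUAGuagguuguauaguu
hsa-miR-21-5p: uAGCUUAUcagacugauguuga
The first 2 are the arms of 1 hairpin, the third is read from the opposite strand of the same place, the next 3 belong to the serum list and the last 3 are the reference miRNAs. Hsa-miR-486-5p and hsa-miR-451a, also of the serum list, are named only.

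Mature miR-122-5p lies on chromosome 18 at 58451088 to 58451109, plus strand, of GRCh38, the build that the submitters' processing notes name as hg38. Its hairpin gene MIR122 spans 58451074 to 58451158. In GENCODE release 29 the hairpin is inside exon 2, at 58449309 to 58453766, of the long noncoding host transcript MIR122HG, on the same strand. MIR3591 lies on the minus strand at 58451080 to 58451152, and 21 bases of hsa-miR-3591-3p are the reverse complement of miR-122-5p. The count table has no entry of this name. Whether its hsa-miR-122b entries, which had 0 reads, stand for the same transcript was not settled. Of the 2370 mature names in the RefSeq table, 0 share bases 2 to 8 with miR-122-5p, and the nearest other sequence, that of hsa-miR-3591-5p, is 5 edits away. In that table no family member of the same seed was thus found with which the reads of miR-122-5p could be divided. Counted names that it lacks, such as hsa-miR-451a, were not compared. The passenger arm hsa-miR-122-3p had 0 reads in both libraries of replicate 2, which allows up to 13.3 and 17.6 reads per 1000000, and it was not analysed here for replicate 1. Hsa-miR-122b-5p had 0 reads in replicate 2 and hsa-miR-122b-3p had 0 reads in replicate 1.

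The libraries were of unequal depth. Replicate 1 held 18397 reads in 231 EV and 15597 in 231 -G EV, and replicate 2 held 224966 and 170894. Hsa-miR-182-5p took 51.0% of the reads of 231 EV replicate 1, or 9379 reads, against 426 reads in 231 -G EV replicate 1, and the main comparisons of miR-122-5p that use that library total are also given with this miRNA left out of the totals. Markers of a mesenchymal breast cancer line (5 miRNAs, among them hsa-miR-21-5p and hsa-miR-100-5p) made up 2.17% and 3.15% of replicate 1 and 36.1% and 28.8% of replicate 2. Most of these reads were of hsa-miR-21-5p, also a reference miRNA, with 356 and 430 reads in replicate 1 and 68029 and 39805 in replicate 2. The 7 miRNAs of the epithelial list, led by the miR-200 family, made up at most 0.583% of any library, although the label calls the cells epithelial. In 231 -G EV replicate 1 the mesenchymal list without hsa-miR-21-5p held fewer reads than the epithelial list.

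MiR-122-5p was detected in every library, at a moderate level. In pair 1 there were 17 reads in complete medium (231 EV) and 48 without glucose (231 -G EV). In pair 2 there were 298 in complete medium and 90 without glucose. Starved cells thus gave the higher value in the first preparation and the lower value in the second, and the values of the groups overlapped. Scaled to the library total, 231 EV had 924 CPM (reads per 1000000 reads of the library) in replicate 1 (95% Wilson interval 577 to 1479) and 1325 in replicate 2 (1183 to 1484). For 231 -G EV the values were 3078 CPM (2322 to 4078) in replicate 1 and 527 CPM (429 to 647) in replicate 2. These intervals cover counting error only, since copies made by PCR were not told apart by molecular identifiers.

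**Figure D1:**
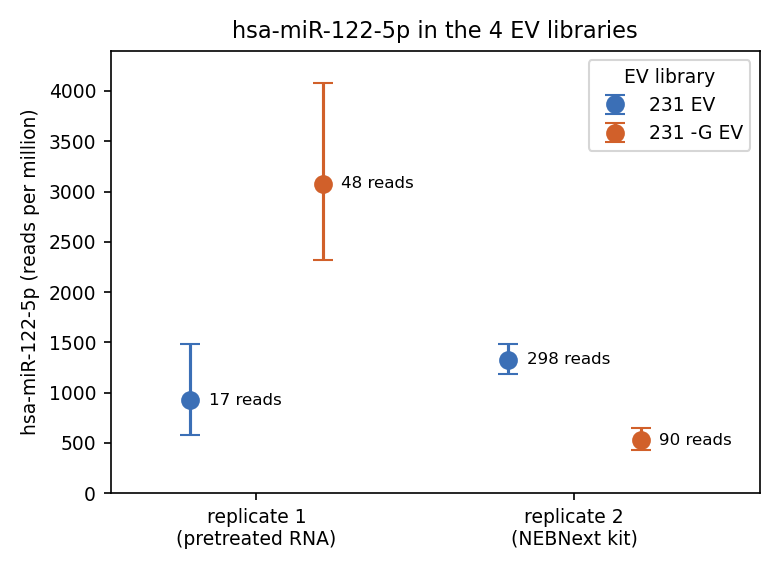
Level of hsa-miR-122-5p in CPM (y axis, from 0) in the 4 libraries, grouped by replicate number and coloured by medium; points are single libraries and bars are 95% Wilson intervals of counting error. 231 -G EV is above 231 EV in replicate 1 (3078 against 924) and below it in replicate 2 (527 against 1325).

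Its place among all miRNAs was high in each library. It ranked 34 of 453 detected miRNAs in 231 -G EV replicate 1, 54 of 484 in 231 EV replicate 1, where 6 miRNAs tied at 17 reads, 62 of 531 in 231 EV replicate 2 and 94 of 492 in 231 -G EV replicate 2. The miRNA just below it in 231 EV replicate 2 was hsa-miR-451a, a red cell miRNA, with 295 reads. In 231 -G EV replicate 1 it stood between hsa-miR-151a-3p with 49 reads and hsa-let-7c-5p with 47. In order of CPM, with all reads in the totals, the libraries were 231 -G EV replicate 1, 231 EV replicate 2, 231 EV replicate 1 and 231 -G EV replicate 2. The first exceeded the second 2.32-fold (95% exact interval 1.68 to 3.16). The second and the third did not differ beyond counting error, with a ratio of 1.43 (0.880 to 2.49), nor did the third and the fourth, with a ratio of 1.75 (0.979 to 2.97). Under glucose starvation replicate 2 had 0.171 (0.119 to 0.248) of the level of replicate 1. The middle of this order turned when hsa-miR-182-5p was taken out of the totals. 231 EV replicate 1, at 1885 CPM, then stood above 231 EV replicate 2, at 1328 CPM, by 1.42 (0.816 to 2.31), again within counting error, and exceeded 231 -G EV replicate 2 by 3.57 (1.99 to 6.04). The highest and the lowest library were the same.

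Whether glucose starvation changed miR-122-5p in the EVs was examined first within each pair. In pair 1 its share of the reads was 3.33-fold higher in 231 -G EV (95% exact interval 1.88 to 6.18). Fisher's exact test on the reads gave a two-sided p of 7.71e-06, or 0.00014 after Benjamini-Hochberg adjustment over the 670 miRNAs of the pair with a read. By the same test 9.7% of these were called, 7.91% higher and 1.79% lower. The call rested on the reads of hsa-miR-182-5p, and a share of reads cannot tell more of one miRNA from less of another. With that miRNA taken out of the totals, the values were 1885 and 3164 CPM, and the ratio was 1.68 (0.948 to 3.11, adjusted Fisher's exact p 0.462), an interval that holds 1. With totals scaled by TMM, which sets the bulk of miRNAs equal between libraries, the ratio was 1.85 (1.05 to 3.44, adjusted Fisher's exact p 0.254).

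In pair 2 the share was lower in 231 -G EV, with a ratio of 0.398 (0.311 to 0.505). The p of Fisher's exact test was 3.11e-16, and 5.19e-15 after adjustment over the 618 miRNAs read in pair 2, where 18.6% were called, 8.74% lower and 9.87% higher. Under the 6 other totals tried, this ratio stayed between 0.361 and 0.398. Both tests compare 2 libraries with each other and not the media.

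The pairs differed from each other. The ratio in pair 1 was 8.38 times that in pair 2, and Zelen's exact test of equal odds ratios gave a two-sided p of 1.05e-13 (adjusted 2.82e-12 over the 295 miRNAs that both pairs read). By this test 13.9% of the 295 differed between the pairs, and miR-122-5p ranked 11 by p. With hsa-miR-182-5p taken out, the difference was 4.22 times (adjusted Zelen's exact p 2.93e-05). MiR-122-5p was 1 of 15 miRNAs, or 5.08% of the 295, that Fisher's exact test called higher in pair 1 and lower in pair 2. None were called in the reverse order (0%), while 2.71% were called higher in both pairs and 0.339% lower in both. With hsa-miR-182-5p taken out of the totals, 4 of 294 were called higher in pair 1 and lower in pair 2, and miR-122-5p was not among them. Then 4 were called in the reverse order, 2 higher in both and 5 lower in both. To pick upregulated EV miRNAs for a figure, the study used a fold above 1.5. Its methods also name DESeq2, with an absolute log2 fold change above 1 and an FDR under 0.05. By the CPM value plus 1, the folds of miR-122-5p were 3.33 and 0.398, and 9.09% of the 539 miRNAs listed for both replicates likewise passed 1.5-fold upwards in pair 1 and downwards in pair 2.

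Over both replicates no change passed the test. With the replicate number as a block, the quasi-likelihood test of edgeR gave a log2 fold change of 0.13 (SE 1.07, p 0.900, adjusted p 0.999 over 384 miRNAs), higher in 1 of 2 pairs. This model called 0 miRNAs (0%), with 5 at an unadjusted p under 0.05. DESeq2 and limma also called 0, with 6 and 13. The direction of the estimate was not settled, since it was -0.34 (SE 0.79) with TMM scaling and -0.15 (SE 0.93) with DESeq2, and the median log2 fold change of all miRNAs moved from 0.20 to -0.14 with TMM. An exact test of the reads stratified by pair gave a common odds ratio of 0.567 (0.461 to 0.695, adjusted exact p 6.28e-08), and 38.6% of the 295 miRNAs passed it. Pair 2 held most of the reads of miR-122-5p and set this value. Pair 1 alone gave 3.33.

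In pair 2 most serum miRNAs fell with miR-122-5p. In pair 1, 10 of 12 had the higher value without glucose, beside 54.2% of all miRNAs, and 4 of these passed the test. With hsa-miR-182-5p out of the totals 7 of 12 had the higher value, beside 41.4% of all, and 2 passed. Hsa-miR-144-3p, hsa-miR-142-3p and hsa-miR-126-5p had equal reads in both libraries of pair 1 and were higher only through the unequal totals. The serum list held 12 miRNAs listed for both replicates and hsa-miR-486-3p, which replicate 1 alone lists, at 0 reads in complete medium and 5 without glucose. Together the list took 20.6% of the reads of 231 EV replicate 1 and 43.4% of 231 -G EV replicate 1, then 2.09% and 0.980% in replicate 2. Most of the sum in replicate 1 was hsa-miR-451a, with 194434 and 408027 CPM. In pair 1, 4 of the 12 members with a read were called higher (Fisher's exact test, against 7.91% of all miRNAs) and 1 lower. In pair 2, 10 of 12 were called lower (against 8.74% of all) and none higher. Over the 11 members with a read in each pair, the median log2 fold of CPM plus 1 was 1.07 in pair 1 and -1.03 in pair 2, beside 0.74 and -0.09 for all 295 miRNAs. With a count of 0 set to the limit of 3 reads, the list's medians were 0.24 and -1.01, beside 0.00 for all miRNAs in either pair. A count of 0 beside at most 3 reads was there taken as no change, and this rule set the 0.00. Hsa-miR-144-5p had 0 reads in both libraries of replicate 1. With hsa-miR-182-5p taken out of the totals, the list took 41.9% and 44.7% of the reads of pair 1, its median log2 fold there was 0.08 beside -0.22 for all miRNAs, and 2 of 12 members were called higher and 1 lower, against 2.69% and 5.08% of all. Pair 2 was as before, with 10 of 12 called lower and a median of -1.03.

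The most abundant serum miRNAs of replicate 1 were a pair of red cell miRNAs. Hsa-miR-451a, which matures without Dicer and fills red cells, rose from 3577 reads in complete medium to 6364 without glucose in pair 1 and fell from 295 to 68 reads in pair 2. Its share was 2.10-fold higher (2.01 to 2.19) in pair 1, and its ratio in pair 2 was 0.303 (0.230 to 0.396). With hsa-miR-182-5p out of the totals the ratio of pair 1 was 1.06 (1.01 to 1.10). Hsa-miR-486-5p, made with the erythroid transcript of the ANK1 gene, had 96 and 295 reads in pair 1 and 143 and 33 in pair 2. The ratios were 3.62 (2.87 to 4.61) and 0.304 (0.201 to 0.446), and 1.83 (1.45 to 2.32) in pair 1 with hsa-miR-182-5p out. Both miRNAs were thus high in starved libraries of the first preparation and low in those of the second, as miR-122-5p was.

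Among miRNAs of vessels and white cells, hsa-miR-126-3p, an endothelial and platelet miRNA, had 22 and 57 reads in pair 1 and 1582 and 589 in pair 2. Its ratios of 3.06 (1.84 to 5.25) and 0.490 (0.445 to 0.539) had the directions of miR-122-5p, with 1.54 (0.927 to 2.65) in pair 1 when hsa-miR-182-5p was taken out. Its opposite arm hsa-miR-126-5p had 2 and 2 reads in pair 1, too few for a comparison, and 690 and 278 in pair 2, a ratio of 0.530 (0.460 to 0.610). Hsa-miR-142-3p, found in blood cells, had 3 and 3 reads in pair 1 and 858 and 324 in pair 2, with a ratio of 0.497 (0.436 to 0.566) in the latter. The other members of the list with a read in both libraries of pair 2 had ratios there from 0.313 to 0.878.

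Hsa-miR-1246 did not follow. Short reads under this name have also been traced to a small nuclear RNA. It had 65 reads in 231 EV and 11 in 231 -G EV of replicate 1, a ratio of 0.200 (0.0950 to 0.381, adjusted Fisher's exact p 3.08e-07), and 1 and 0 reads in replicate 2, too few for a fold. It was the 1 member called against the direction of miR-122-5p.

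**Figure D2:**
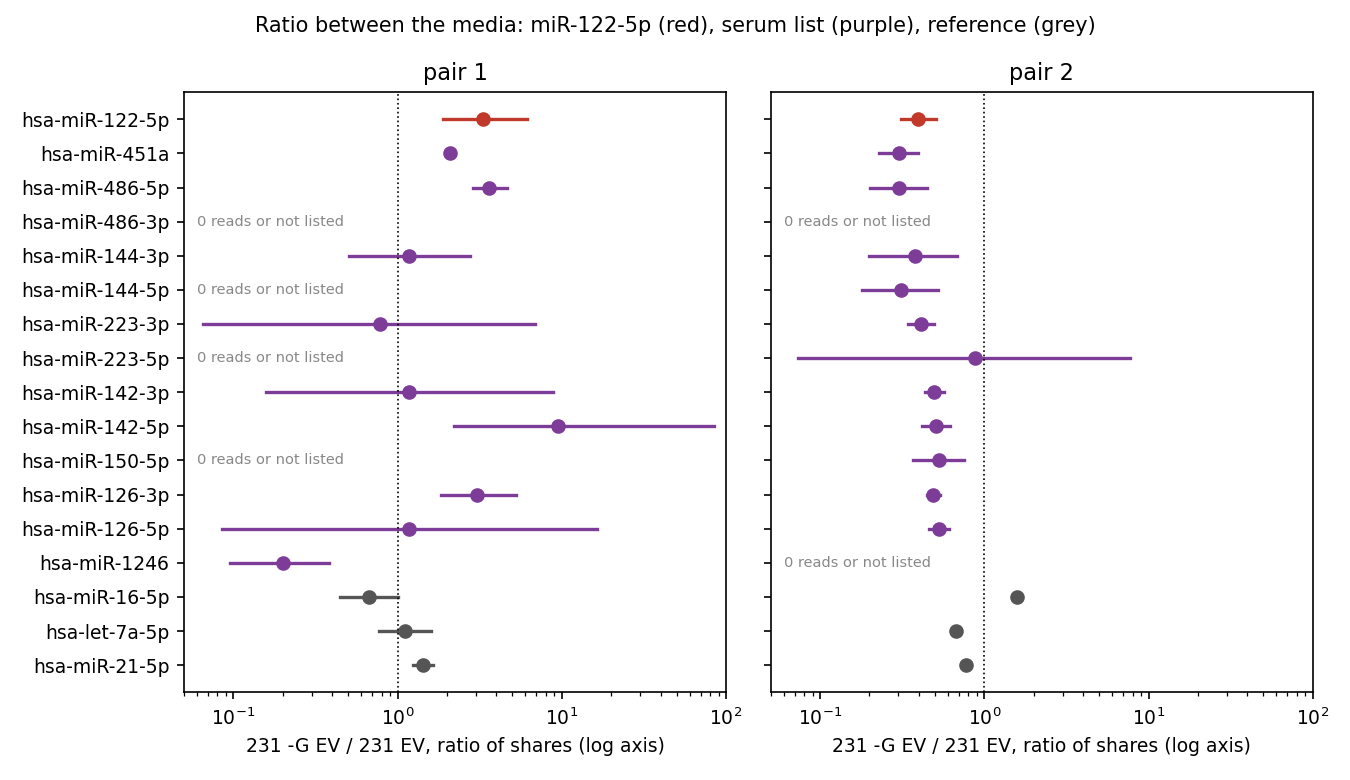
Ratio of the share of reads in 231 -G EV to that in 231 EV (log x axis) for hsa-miR-122-5p, the 13 miRNAs of the serum list and 3 reference miRNAs, in pair 1 (left) and pair 2 (right); points are ratios of 2 libraries and bars are 95% exact intervals of counting error. In pair 2 miR-122-5p at 0.398 stands among serum miRNAs from 0.303 to 0.878, and in pair 1 at 3.33 beside hsa-miR-486-5p at 3.62 and hsa-miR-126-3p at 3.06.

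A ratio of 2 miRNAs within a library does not depend on the library total, so the share of hsa-miR-182-5p cannot move it. Per 100 reads of hsa-miR-486-5p there were 17.7 reads of miR-122-5p in 231 EV and 16.3 in 231 -G EV of pair 1, a ratio of ratios of 0.919 with a 95% exact interval of 0.491 to 1.79. In pair 2 there were 208 and 273, a ratio of ratios of 1.31 (0.823 to 2.11). Relative to hsa-miR-451a the ratios of ratios were 1.59 (0.895 to 2.95) and 1.31 (0.907 to 1.90). Relative to hsa-miR-126-3p they were 1.09 (0.488 to 2.46) and 0.811 (0.622 to 1.05). Each of these 6 intervals holds 1, so that a change of miR-122-5p against these serum miRNAs was not detectable, although the intervals of pair 1 reach from 0.488 to 2.95.

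Over the whole list, the interval held 1 for 8 of the 9 members with reads in both libraries of pair 1 and for 10 of 11 in pair 2. Over all other miRNAs read in both libraries it held 1 for 77.4% of 266 and 50.2% of 404. Where the member had at least 10 reads in both libraries, it held 1 for 4 of 5 and 9 of 10, beside 57.6% of 66 and 21.7% of 203 miRNAs of that depth. In pair 1 a ratio to miR-122-5p without a detectable change was thus common among all miRNAs. The exceptions were hsa-miR-1246 in pair 1, at 16.7 (6.68 to 42.8), and hsa-miR-126-5p in pair 2, at 0.750 (0.563 to 0.993). In pair 2 the 10 well covered ratios of ratios lay between 0.750 and 1.31.

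The reference miRNAs gave another picture. Against hsa-miR-16-5p, a normaliser of RT-qPCR that is also plentiful in red cells, the ratio of ratios of miR-122-5p was 4.94 (2.40 to 10.4) in pair 1 and 0.252 (0.197 to 0.321) in pair 2. Against hsa-let-7a-5p, of the tumour-suppressing let-7 family, it was 3.01 (1.50 to 6.16) and 0.592 (0.462 to 0.753). Against hsa-miR-21-5p, the most abundant miRNA of replicate 2, it was 2.34 (1.29 to 4.41) and 0.516 (0.403 to 0.656). For none of the 3, in either pair, did the interval hold 1. Over all other miRNAs with at least 10 reads in both libraries it held 1 for 57.6% of 66 and 21.7% of 203. In pair 2 a detectable change against miR-122-5p was thus common among all miRNAs. The ratio of miR-122-5p to each of the 3 was thus higher without glucose in pair 1 and lower in pair 2. With hsa-miR-182-5p out of the totals, the 3 reference miRNAs were themselves called lower in pair 1, at ratios of 0.340 for hsa-miR-16-5p, 0.558 for hsa-let-7a-5p and 0.718 for hsa-miR-21-5p, while miR-122-5p at 1.68 was not called.

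**Figure D3:**
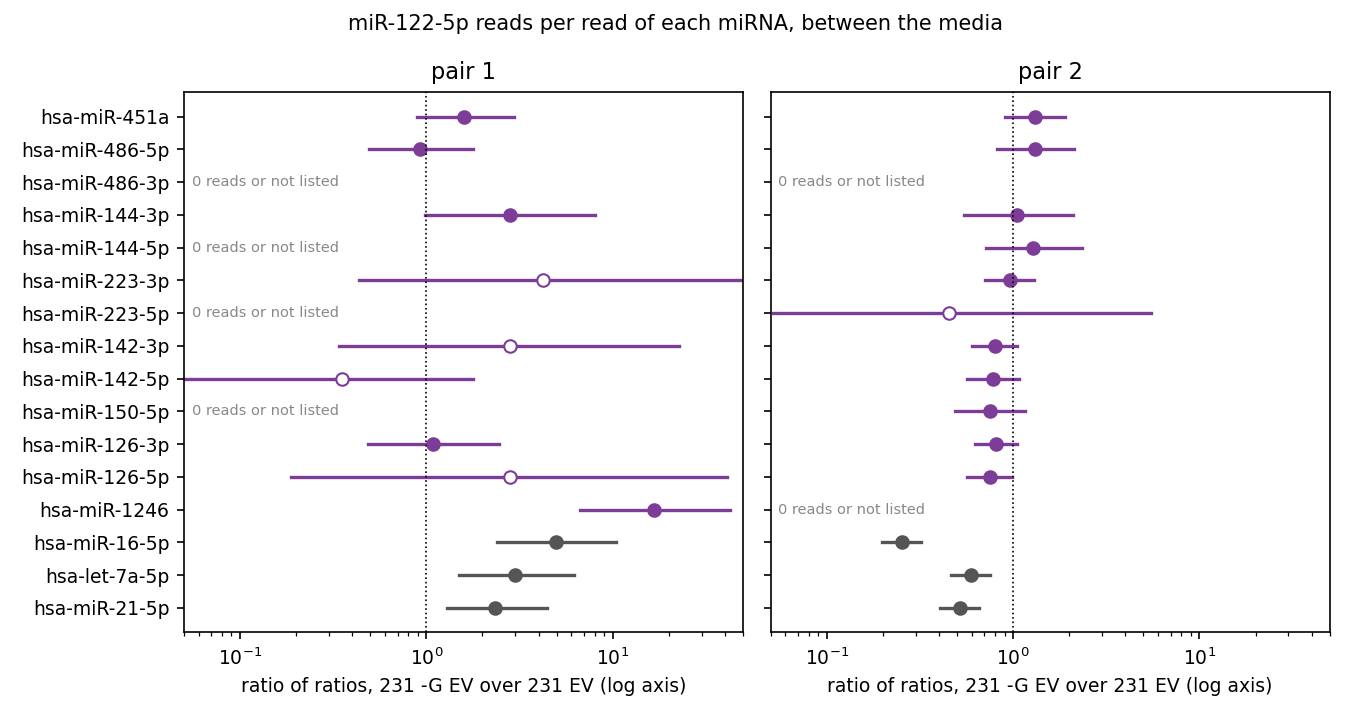
Reads of hsa-miR-122-5p per read of each serum list miRNA (purple) and reference miRNA (grey), as the ratio of 231 -G EV to 231 EV (log x axis) in pair 1 (left) and pair 2 (right); bars are 95% exact intervals, and open points mark miRNAs with under 10 reads in a library. In pair 2 the purple points with at least 10 reads lie between 0.750 and 1.31, and the grey points between 0.252 and 0.592. In pair 1 the ranges overlap, from 0.919 to 16.7 for such purple points and from 2.34 to 4.94 for the grey points.

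The proportion to hsa-miR-451a was not fixed across the preparations. In 231 EV, miR-122-5p had 0.475 reads per 100 reads of hsa-miR-451a in replicate 1 and 101 in replicate 2. In 231 -G EV the values were 0.754 and 132. The proportion to the liver miRNA hsa-miR-192-5p differed less between the preparations, with 81.0 and 85.6 reads of miR-122-5p per 100 in 231 EV and 87.3 and 39.1 in 231 -G EV. These 2 do not stand for their lists. Per 100 reads of hsa-miR-126-3p, of the serum list, there were 77.3 and 18.8 in 231 EV and 84.2 and 15.3 in 231 -G EV. Per 100 of the liver miRNA hsa-miR-148a-3p there were 13.6 and 37.4, and 4.21 and 9.53. Whether the reads of miR-122-5p came from serum or from the cells was not tested, and both sources cannot be told apart by sequence.

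Of the 54 miRNAs with at least 10 reads in each of the 4 libraries, 27 were higher in pair 1 and lower in pair 2, as miR-122-5p was, 19 were higher in both, 5 were lower in pair 1 and higher in pair 2 and 3 were lower in both. The 27 held the 4 serum list members at that depth, hsa-miR-451a, hsa-miR-486-5p, hsa-miR-144-3p and hsa-miR-126-3p. With hsa-miR-182-5p out of the totals, 14 of the other 53 were higher in pair 1 and lower in pair 2, 14 the reverse, 10 higher in both and 15 lower in both. MiR-122-5p, hsa-miR-451a, hsa-miR-486-5p and hsa-miR-126-3p were still among the former 14, and hsa-miR-144-3p was not.

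**Figure D4:**
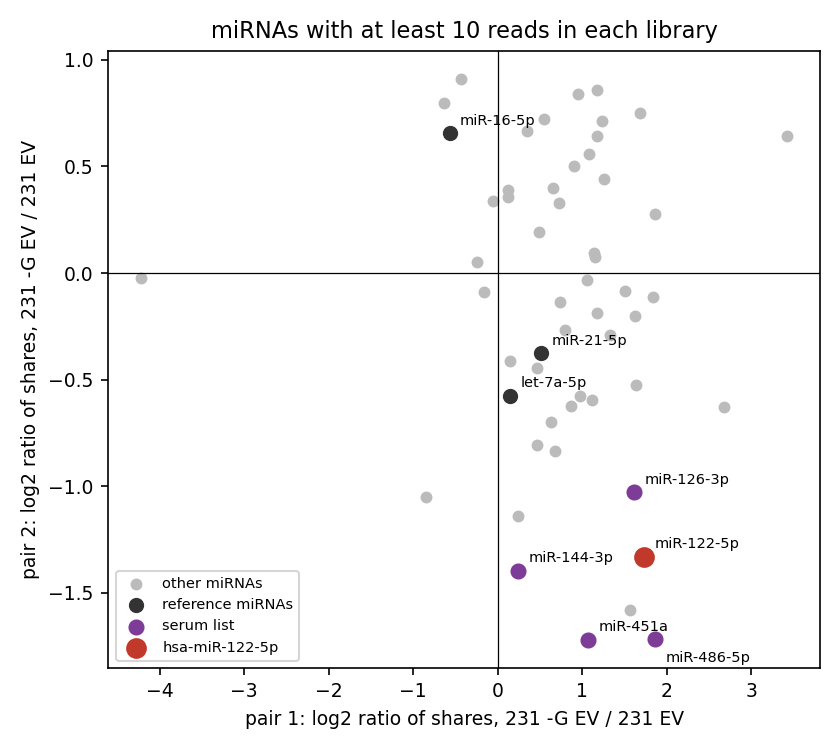
Log2 ratio of the share of reads in 231 -G EV to that in 231 EV in pair 1 (x axis) and pair 2 (y axis) for the 54 miRNAs with at least 10 reads in each library; colours mark hsa-miR-122-5p, the serum list and the reference miRNAs. MiR-122-5p lies at 1.74 and -1.33, at the lower right, where 27 of the 54 miRNAs lie, with serum list members from hsa-miR-144-3p, at 0.24 and -1.40, to hsa-miR-486-5p, at 1.86 and -1.72.

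Whether other miRNAs of the liver moved with it was examined with a list of 11. Of these, 6 had a read in each pair, and their median log2 fold of CPM plus 1 was 1.42 in pair 1 and -0.37 in pair 2 (1.03 and -0.10 with counts of 0 at the limit). With hsa-miR-182-5p out of the totals the median of pair 1 was 0.44. Fisher's exact test called 2 of 6 higher and none lower in pair 1 (7.91% and 1.79% of all miRNAs), and 1 of 6 higher and none lower in pair 2 (9.87% and 8.74% of all). Hsa-miR-192-5p, shared by liver and gut, had 21 and 55 reads in pair 1 and 348 and 230 in pair 2. Its ratio was 3.09 (1.84 to 5.38) in pair 1, or 1.56 (0.926 to 2.71) and not called with hsa-miR-182-5p out, and 0.870 (0.733 to 1.03) in pair 2. The ratio of miR-122-5p to it was level in pair 1, with a ratio of ratios of 1.08 (0.479 to 2.45), and fell in pair 2 to 0.457 (0.338 to 0.615). Hsa-miR-148a-3p, abundant in liver and in many other tissues, had 125 and 1140 reads and then 797 and 944, with ratios of 10.8 (8.94 to 13.0) and 1.56 (1.42 to 1.72), and so was higher in starved libraries of both preparations. It was the 1 liver miRNA still called in pair 1 with hsa-miR-182-5p out of the totals, at a ratio of 5.42 (4.50 to 6.57). Hsa-miR-194-5p, which is transcribed with miR-192, had 6 and 9 and then 94 and 49 reads, with ratios of 1.77 (0.562 to 6.04), or 0.892 (0.283 to 3.04) with hsa-miR-182-5p out, and 0.686 (0.476 to 0.979, adjusted Fisher's exact p 0.153). Hsa-miR-148a-5p had at most 3 reads in any library. Hsa-miR-885-5p, a liver miRNA, had 0 reads in all 4 libraries.

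MiR-122-5p acts on glucose use, and 12 other miRNAs tied to glucose or lipid metabolism were read for the same contrast. In pair 1, 2 were called higher and 1 lower, beside 7.91% and 1.79% of all miRNAs. With hsa-miR-182-5p out of the totals these counts were 0 and 1, beside 2.69% and 5.08%. In pair 2, 2 were called higher and 2 lower, beside 9.87% and 8.74% of all. The median log2 fold of CPM plus 1 was 4.12 in pair 1, which 6 members with 0 reads in 231 EV set, and 0.43 with those counts at the limit. In pair 2 it was -0.29 (0.06 with counts of 0 at the limit). Hsa-miR-143-3p, which targets hexokinase 2, fell in both pairs, with ratios of 0.554 (0.468 to 0.654), or 0.279 (0.236 to 0.330) with hsa-miR-182-5p out, and 0.483 (0.403 to 0.576). Hsa-miR-103a-3p, a regulator of insulin sensitivity, had 26 and 34 reads in pair 1, and fell in pair 2 with 4221 and 1975 reads and a ratio of 0.616 (0.584 to 0.650). Its relative hsa-miR-107 went the other way in pair 2, from 559 to 612 reads, a ratio of 1.44 (1.28 to 1.62). Hsa-miR-378a-3p, encoded in the gene of the metabolic coactivator PGC-1β, rose in pair 1 from 13 to 40 reads, a ratio of 3.63 (1.90 to 7.40) that was 1.83 (0.958 to 3.73) with hsa-miR-182-5p out, and had 37 and 34 reads in pair 2.

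The miRNAs whose profile over the 4 libraries was most like that of miR-122-5p were looked for among the 53 others with at least 10 reads in each library. Likeness was the root mean square difference of log2 CPM after each profile was centred on its mean. The nearest were hsa-miR-10a-5p (0.40), hsa-miR-218-5p (0.46), hsa-miR-192-5p (0.48), hsa-miR-181a-5p (0.53) and hsa-let-7f-5p (0.59), against a median of 1.18. Hsa-miR-10a-5p, from the HOX gene clusters, had 99 and 210 reads in pair 1 and 1022 and 634 in pair 2. Hsa-miR-218-5p, encoded in the SLIT genes, had 12 and 29 and then 113 and 81 reads. Of the serum list members, hsa-miR-144-3p at rank 14 (0.88) and hsa-miR-126-3p at 23 (1.13) were nearer than the median, and hsa-miR-486-5p at 43 (1.91) and hsa-miR-451a at 53, the last (3.81), were farther. With 4 libraries in 2 preparations, this is a description of 4 values for each miRNA.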

How the data were processed

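The authors trimmed and filtered the reads, removed other small RNA classes, aligned the rest and matched it to miRBase. The submitters' processing notes name FastQC, cutadapt, Bowtie, Bowtie2, edgeR and StringTie and the build hg38, and the stated methods do not separate the 2 preparations. The authors deposited whole-number counts per mature miRNA in 2 tables, with 1315 entries for replicate 1 and 843 for replicate 2. The deposited CPM (replicate 1) and deposited TPM (replicate 2) were both checked to equal the count over the library total times 1000000, so they carry no length term, and levels were formed from the counts. Entries missing from one of the tables have no value there and were not set to 0.

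Library totals were from 15597 to 224966 reads. Within a pair, reads were compared by Fisher's exact test with exact conditional intervals (SciPy 1.17.1), and the pairs by exact stratified and Zelen's tests. Across replicates, edgeR 4.0.16 (R 4.3.3) was run on the counts with library totals as deposited, miRNAs above 0 in at least 2 libraries, and the replicate number as a block. Calls were made at an adjusted p under 0.05, and with edgeR also at an absolute log2 fold change above 1. DESeq2 1.42.0 and limma 3.58.1 were alternatives. The pairing came from the labels, since a number marks a shared preparation, and libraries with the same number deviated together (correlation of 0.59 across 384 miRNAs). All tests were two-sided, adjusted by Benjamini-Hochberg, and tested on simulated data. The exact tests on reads cover counting error within single libraries only. Nothing states that replicates were separate cultures, so the p-values of edgeR, DESeq2 and limma measure only the spread between these samples.

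The miRNA, the lists and the tests were chosen with earlier results of these data known. MiRNAs were named by rule: miR-122-5p and its arms, the members of each list with the highest mean CPM (6 of the serum list, 4 of the others), its 5 nearest profiles and its neighbours in rank. Other names in the text, such as hsa-miR-486-3p, hsa-miR-144-3p, hsa-miR-144-5p, hsa-miR-885-5p and hsa-miR-182-5p, were chosen after their values were seen. A limit for a count of 0 is 3 reads, and in medians at this limit a 0 beside at most 3 reads counted as no change. Sequences are those of RefSeq, which matched 42 of the 50 list names.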

Additional observations from a re-analysis of the deposited data

Results flagged for a closer look

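The difference between the media was not the same in both preparations. The ratio of 231 -G EV to 231 EV for hsa-miR-122-5p in pair 1 was 8.38 times that in pair 2 (Zelen's exact test, adjusted p 2.82e-12), with 17 and 48 reads in pair 1 and 298 and 90 in pair 2. It is listed here because the test of the difference passed and the pairs moved in opposite directions under the same contrast. The share of hsa-miR-182-5p, 51.0% of 231 EV replicate 1, fell in pair 1 where miR-122-5p rose, at a ratio of 0.0536. In pair 2 it was level, at 0.983. Without that miRNA in the totals the difference between the pairs was 4.22 times. The summed serum list moved with miR-122-5p, from 20.6% to 43.4% of the reads in pair 1 and from 2.09% to 0.980% in pair 2. Without hsa-miR-182-5p the values of pair 1 were 41.9% and 44.7%. Most of the sum in pair 1 was hsa-miR-451a, with 194434 and 408027 CPM. The part of hsa-miR-182-5p or of the serum list in the result was not tested further. The preparations cannot be told apart from whatever else the replicates differed in.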

How the results depend on the processing

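The fall in pair 2 and the difference between the pairs kept their direction and their side of the threshold under all 6 other totals, with ratios of 0.361 to 0.398 and differences of 4.22 to 11.9 times. The totals without the serum list, those scaled by TMM and the reading of the lists without hsa-miR-182-5p were chosen after seeing the data. The rise in pair 1 kept its call in 3 of these, at ratios of 3.35 to 4.68, and lost it in 3, at 1.68 without hsa-miR-182-5p, 1.71 without hsa-miR-182-5p, hsa-miR-451a and hsa-miR-21-5p, and 1.85 with TMM scaling (adjusted p from 0.254 to 0.462). Without hsa-miR-182-5p the total of 231 EV replicate 1 was 9018 in place of 18397 reads. TMM lowered that total by a factor of 0.792 and raised that of 231 -G EV replicate 1 by 1.42. The stratified odds ratio stayed between 0.470 and 0.592 under other totals. Leaving out a replicate gave values from 0.398 (without replicate 1) to 3.33 (without replicate 2), a reversal that the opposite pairs make by construction.

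The model estimate of 0.13 was not called in any alternative (adjusted p from 0.991 to 1.00). It changed sign with TMM scaling (-0.34), with DESeq2 (-0.15) and with hsa-miR-182-5p removed (-0.37), and the cause was not tested. Leaving out a replicate gave -1.33 to 1.74, as values with no test. Without the replicate block it was 0.67 (SE 1.79), so the block changed no call. The number of miRNAs called was 0 in the main model and 1 either with no filter on low counts or with hsa-miR-182-5p removed. Of the 5 nearest profiles, 3 remained when 1 read in each library was enough and 5 with TMM scaling. Depth limits pair 1, where 1 read was worth 54.4 and 64.1 CPM.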

Other observations

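The 15 miRNAs called higher in pair 1 and lower in pair 2 were named after their values were seen. Beside hsa-miR-122-5p and 4 members of the serum list (hsa-miR-451a, hsa-miR-486-5p, hsa-miR-126-3p and hsa-miR-142-5p), they were hsa-let-7f-5p, hsa-let-7i-5p, hsa-miR-10a-5p, hsa-miR-10b-5p, hsa-miR-99a-5p, hsa-miR-100-5p, hsa-miR-26a-5p, hsa-miR-191-5p, hsa-miR-425-5p and hsa-miR-21-5p. MiR-10a and miR-10b are encoded in the HOX clusters, and miR-99a and miR-100 share a seed. Hsa-miR-10b-5p, known for promoting metastasis in breast cancer, lay near miR-122-5p in both ratios, with 24 and 60 reads in pair 1 (ratio 2.95) and 59 and 15 in pair 2 (ratio 0.335). The largest ratio in pair 1 among the 10 outside the serum list was that of hsa-miR-99a-5p, with 52 and 283 reads (6.42, or 3.24 with hsa-miR-182-5p out of the totals), followed by 167 and 82 reads (0.646) in pair 2. Of these 10, hsa-miR-191-5p and hsa-miR-99a-5p kept both calls when hsa-miR-182-5p was taken out of the totals. Hsa-let-7f-5p and hsa-miR-21-5p then turned to lower in pair 1, at ratios of 0.697 and 0.718, and hsa-miR-10b-5p was at 1.49 (0.912 to 2.50), not called. Hsa-miR-21-5p had 356 and 430 reads (1.42), then 68029 and 39805 (0.770).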
